A study of Mus musculus with 37 samples.

Results

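The levels of 7 globin genes were measured by bulk RNA sequencing of mouse embryonic hearts. They are the embryonic genes Hba-x, Hbb-y and Hbb-bh1, and the adult-type genes Hba-a1, Hba-a2, Hbb-bt and Hbb-bs. The genes were chosen by symbol, and all 7 are among the 25239 gene rows of the deposited count table. The 37 libraries came from hearts at stage E10.5 of 4 genotypes: 10 wild-type hearts (Nipbl +/+; Isl1 +/+), 9 Isl1 +/-, 9 Nipbl +/- and 9 Nipbl +/-; Isl1 +/-. Nipbl loads cohesin, the ring complex that folds chromosomes into loops. Isl1 is a LIM-homeodomain factor made by progenitors of the heart.

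The fathers carried Stra8-iCre, a Cre recombinase of the male germ line, and 1 floxed Nipbl allele. Their sperm passed on either the floxed allele, which acts as wildtype, or FIN, the null allele. The mothers were Isl1 Cre/+, so the Isl1 +/- embryos of both Nipbl genotypes carry a Cre in place of 1 Isl1 copy. Isl1 +/- embryos with intact Nipbl can therefore hold Cre and the floxed allele together; whether the allele recombined there was not tested at the DNA level, and the log2 difference of Nipbl RNA between these and wild-type hearts was 0.03 (SE 0.11, adjusted p = 0.972, edgeR). Each sample description also holds a number after the letters IVF, which is called the set here. Set 1 holds 3 wild-type and 3 Isl1 +/- libraries, sets 2, 5 and 6 hold 9, 14 and 7 libraries of all 4 genotypes, and set 7 is 1 Nipbl +/-; Isl1 +/- library (replicate 2). Libraries of 1 genotype are taken as separate hearts; the labels do not say so, and p-values measure the spread between these libraries.

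Hemoglobin is built from 2 alpha-type and 2 beta-type chains. The first red cells of the mouse, the primitive erythroid cells of the yolk sac, use embryonic chains: Hba-x encodes the zeta chain of the alpha family, and Hbb-y and Hbb-bh1 encode the epsilon-y and beta-h1 chains of the beta family. These cells enter the circulation as nucleated erythroblasts and mature there, and within them Hbb-bh1 is known as the earlier and Hbb-y as the later of the 2 embryonic beta-type genes. Primitive erythroid cells are known to transcribe the adult-type alpha genes Hba-a1 and Hba-a2 as well. Definitive red cells, made later by the fetal liver and the bone marrow, use Hba-a1, Hba-a2, Hbb-bs and Hbb-bt. How much blood stayed in each dissected heart was not measured. In bulk samples, fewer red cells and less globin RNA per cell cannot be told apart.

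The alpha-type genes lie in 1 cluster and the beta-type genes in another, each protein-coding. On GRCm38, with GENCODE gene positions, Hba-x occupies chr11:32276400-32278116, Hba-a1 chr11:32283511-32284465 and Hba-a2 chr11:32296489-32297298, all on the forward strand. On the reverse strand lie Hbb-y at chr7:103851749-103853216, Hbb-bh1 at chr7:103841637-103843164, Hbb-bs at chr7:103826534-103828096 and Hbb-bt at chr7:103812524-103813996. The first 60 coding bases are shown because the near-identity of some members bears on how their reads can be counted. Capitals mark bases that differ from Hbb-bs in the beta family and from Hba-a1 in the alpha family.
Hbb-bs: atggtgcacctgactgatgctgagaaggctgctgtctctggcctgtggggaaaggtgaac
Hbb-bt: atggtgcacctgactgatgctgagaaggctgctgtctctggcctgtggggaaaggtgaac
Hbb-y: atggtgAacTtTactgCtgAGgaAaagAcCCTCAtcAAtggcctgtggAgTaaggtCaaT
Hbb-bh1: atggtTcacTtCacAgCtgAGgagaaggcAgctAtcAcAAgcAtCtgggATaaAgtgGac
Hba-a1: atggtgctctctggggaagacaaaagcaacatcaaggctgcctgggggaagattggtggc
Hba-a2: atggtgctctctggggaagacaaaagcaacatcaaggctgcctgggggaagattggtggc
Hba-x: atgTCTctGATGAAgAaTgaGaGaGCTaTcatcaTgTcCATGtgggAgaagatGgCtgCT

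Over this stretch Hbb-bt has 0 differences from Hbb-bs and Hba-a2 has 0 from Hba-a1, while Hbb-y has 19, Hbb-bh1 has 18 and Hba-x has 28. Over the whole coding sequence, Hbb-bs and Hbb-bt differed at 1 of 441 bases and Hba-a1 and Hba-a2 at 1 of 426. Hbb-y and Hbb-bh1 were 76.4% identical, and Hba-x was 61.7% identical to Hba-a1. Of all 100-base windows of their transcripts, 56.5% for Hba-a1, 74.5% for Hba-a2, 54.8% for Hbb-bt and 62.6% for Hbb-bs occur unchanged in another globin gene. For Hba-x, Hbb-y and Hbb-bh1 that share was 0%.

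The 4 adult-type genes were nearly empty in the count table. Hba-a1 had 5 counts and Hba-a2 had 6, each spread over 3 libraries, and Hbb-bt and Hbb-bs had 0 counts in all 37, which allows a share of up to 2.28e-07% of all counts (3 counts of the total). Hbb-b1 and Hbb-b2, the symbols of another form of the adult beta locus, are also listed and had 0. Against these 11 adult-type counts stood 20031670 counts of the 3 embryonic genes. How reads that match several genes were counted is not given in the sources used here, and its part in these values was not tested: much of each adult-type transcript is shared with its partner, but not all of it. With so few counts, no ratio of embryonic to adult-type globin is given, and the adult-type genes were not testable.

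The embryonic globins were measured with great precision in each library but differed widely between libraries. Together the members took between 0.0446% of all counts, in Nipbl +/- replicate 2, and 8.92%, in wild-type replicate 7, a 200-fold span. Library totals ran from 23356831 to 50974736 counts, with a median of 36239721, and the widest 95% Wilson interval of a share was ± 0.0116 percentage points (counting error only). Wild-type replicate 7 has both the highest globin share and the lowest total. Nipbl fell by 0.74 on the log2 scale in Nipbl +/- hearts and by 0.82 in Nipbl +/-; Isl1 +/- hearts against wild type (adjusted p = 0.000348 and 7.19e-05, edgeR), but the library labelled Nipbl +/- replicate 2 had 72.4 Nipbl CPM (counts scaled to library size), above the wild-type median of 57.0. Isl1 differed from wild type by -0.20 (SE 0.18, adjusted p = 0.877, edgeR) in Isl1 +/-, by 0.32 (SE 0.20, adjusted p = 0.591) in Nipbl +/-; Isl1 +/- and by 0.79 (SE 0.19, adjusted p = 0.0252) in Nipbl +/- hearts. Whether its counts come from the replaced part is not given in the sources used here, so they check no label. As heart tissue, all libraries were rich in 10 cardiomyocyte markers, which summed to between 32217 and 49807 CPM.

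Among the alpha-type genes, only Hba-x could be followed. In wild-type hearts, Hba-x took 0.0456% of counts in the lowest library, 0.231% at the median and 1.74% in the highest (n = 10). In Isl1 +/- hearts the values were 0.0208%, 0.357% and 1.26% (n = 9). In Nipbl +/- hearts they were 0.0123%, 0.174% and 0.635% (n = 9). In Nipbl +/-; Isl1 +/- hearts they were 0.0379%, 0.395% and 1.09% (n = 9). The 4 groups overlapped over most of their range, and the lowest median was that of the Nipbl +/- hearts.

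Hbb-y was the most abundant of the members that could be counted. Its share of counts ran from 0.0715% over a median of 0.404% to 4.30% in wild-type hearts, and from 0.0320% over 0.632% to 1.98% in Isl1 +/- hearts. It ran from 0.0197% over 0.303% to 1.21% in Nipbl +/- hearts, and from 0.0605% over 0.761% to 2.23% in Nipbl +/-; Isl1 +/- hearts. Again each group spanned more than the distance between the group medians.

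Hbb-bh1, its neighbour in the beta cluster, had shares from 0.0590% over a median of 0.301% to 2.88% in wild-type hearts and from 0.0255% over 0.471% to 1.31% in Isl1 +/- hearts. In Nipbl +/- hearts it ran from 0.0126% over 0.195% to 0.592%, and in Nipbl +/-; Isl1 +/- hearts from 0.0376% over 0.393% to 1.31%.

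**Figure D1:**
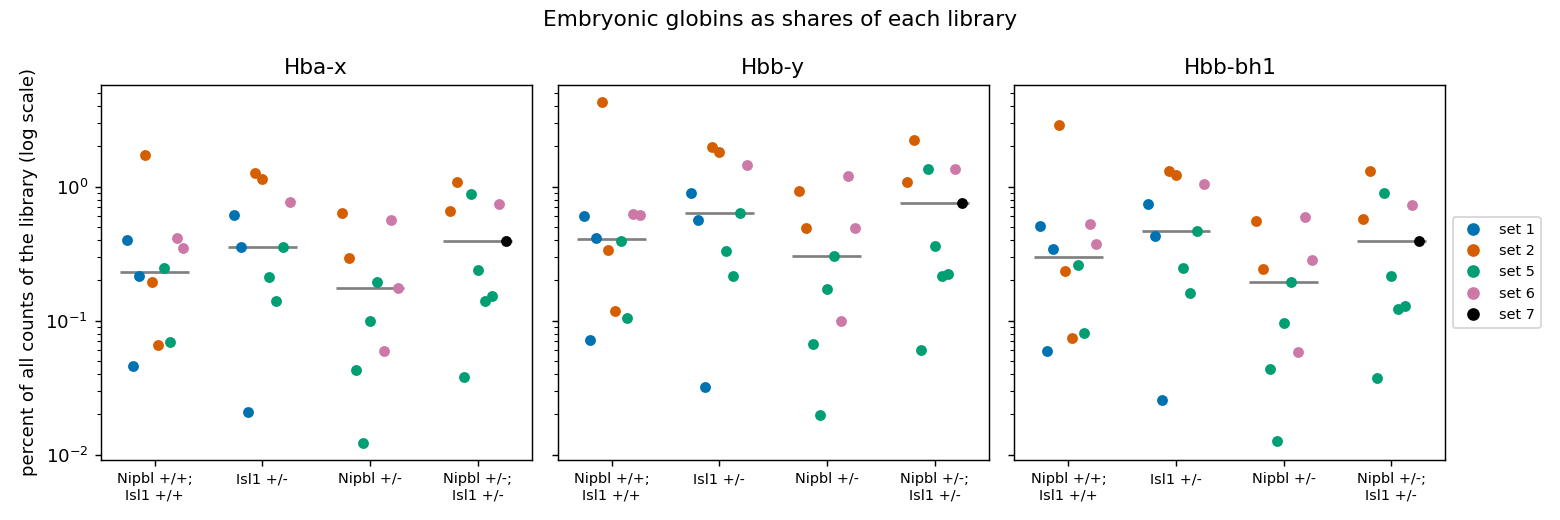
Shares of Hba-x, Hbb-y and Hbb-bh1 in each of the 37 libraries, as percent of all counts of the library on a log axis, by genotype; points are libraries coloured by set and grey lines are group medians. All groups overlap, and wild-type replicate 7 is the highest point of its group in each panel, at 1.74%, 4.30% and 2.88%.

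Per kilobase of exon, which makes levels comparable between genes, Hbb-y was highest, Hbb-bh1 next and Hba-x lowest in 37 of 37 libraries. The median level, as CPM divided by kilobases of exon, was 7709 for Hbb-y, 4595 for Hbb-bh1 and 2616 for Hba-x.

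The 3 genes varied together. Log2 CPM of Hbb-y and Hbb-bh1 had Pearson r = 0.992 and Spearman rho = 0.988 over the 37 libraries (permutation p = 1e-05 for each, the smallest that 100000 permutations can give; adjusted over 3 pairs 1e-05). For Hbb-y and Hba-x, r was 0.994 and rho 0.988, and for Hba-x and Hbb-bh1, r was 0.990 and rho 0.987, with the same p. Without the 2 libraries farthest from the median of the first gene, r stayed between 0.987 and 0.992, and within sets 1, 2, 5 and 6 it ran from 0.977 to 1.000. The points share the blood content and depth of each library.

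The genes whose levels followed Hbb-y most closely among 12077 genes included genes of the red cell. Alas2, which starts heme synthesis in red cells, had r = 0.990 over the 37 libraries. Rhd, a membrane protein of the red cell, had r = 0.989, Trim10, a gene of red cell maturation, had r = 0.985, and Lmx1a had r = 0.986. Among the genes named by rule, Slc4a1 (the band 3 anion exchanger) had r = 0.967 and the erythroid factor Klf1 had r = 0.976. Gata1, the erythroid and megakaryocyte factor, had r = 0.904, and 0.983 without Nipbl +/- replicate 2. That library had 287 CPM summed over 8 megakaryocyte markers, the highest value of all libraries. Ahsp, which stabilises free alpha chains, was not analysed here.

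The 5′ sequence of Hba-x and Hbb-y is shown because genes of 2 clusters moved together this closely. The 150 bases before the start given by RefSeq (GRCm38.p6) are printed on the sense strand. Capitals mark 4 motifs searched on both strands of these 150 bases. They are CACCC, the core of sites of Klf-type factors, GATA, that of Gata factors, the CCAAT box and the TATA box core. The Hba-x window is chr11:32276450-32276599, which lies inside the longer GENCODE gene, and the Hbb-y window is chr7:103853208-103853357.
Hba-x: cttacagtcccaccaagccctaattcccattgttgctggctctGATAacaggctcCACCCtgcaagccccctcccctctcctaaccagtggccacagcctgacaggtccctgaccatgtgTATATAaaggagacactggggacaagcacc
Hbb-y: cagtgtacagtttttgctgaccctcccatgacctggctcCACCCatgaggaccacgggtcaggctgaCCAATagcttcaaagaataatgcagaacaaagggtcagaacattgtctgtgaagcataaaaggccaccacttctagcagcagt

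In the printed stretch of Hba-x, GATA begins 107 bases and CACCC 95 bases before the start, with 2 overlapping TATA matches at 30 and 28. In that of Hbb-y, CACCC begins 111 and CCAAT 83 bases before it. These short motifs are common: of 32851 mouse promoter windows of 250 bases, 52.0% hold CACCC, 33.8% CCAAT, 53.6% GATA and 34.0% TATA. Those windows are longer than the 150 bases searched for Hba-x and Hbb-y. A match is a description and names no bound site. In all, 6 of the 7 members had a promoter entry, all but Hbb-bh1.

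No genotype comparison called a member. In edgeR's quasi-likelihood test with the set number as a term, 0 of the 3 testable members passed an adjusted p of 0.05 (Benjamini-Hochberg over 15046 genes) in any of the 6 comparisons. Over all genes the share called was 0% for Isl1 +/- against wild type, 1.71% for Nipbl +/- against wild type, 2.6% for Nipbl +/-; Isl1 +/- against wild type, 0.957% for it against Isl1 +/-, 0% for it against Nipbl +/- and 0% for the interaction of both losses. Averaged over the other genotype, it was 4.02% for Nipbl loss and 0.173% for Isl1 loss, again with 0 members called. DESeq2 also called 0 in each. At an unadjusted p under 0.05, edgeR had 3 members and DESeq2 had 1 in each of 2 contrasts, namely Nipbl +/-; Isl1 +/- against Nipbl +/- and averaged Isl1 loss, and both tools had 0 in the other 6. Of all 15046 genes, edgeR had 9.01% and 12.2% at that level in these 2 contrasts.

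Against wild type, the fitted log2 difference of Nipbl +/- hearts was -0.80 (SE 0.62, adjusted p = 0.565, edgeR) for Hba-x, -0.89 (SE 0.66, adjusted p = 0.546) for Hbb-y and -1.19 (SE 0.66, adjusted p = 0.402) for Hbb-bh1. In Isl1 +/- hearts the differences were 0.63 (SE 0.58), 0.47 (SE 0.61) and 0.48 (SE 0.61), and in Nipbl +/-; Isl1 +/- hearts 0.74 (SE 0.65), 0.58 (SE 0.68) and 0.34 (SE 0.68), for Hba-x, Hbb-y and Hbb-bh1 in that order. Without the set term, and without Nipbl +/-; Isl1 +/- replicate 3, the last value turned to -0.22 and -0.28. Without wild-type replicate 7, the library with the highest globin share, the Nipbl +/- values against wild type were -0.33 for Hba-x, -0.23 for Hbb-y and -0.53 for Hbb-bh1. The Isl1 +/- values were then 1.05, 1.07 and 1.07, and those of Nipbl +/-; Isl1 +/- hearts 1.19, 1.25 and 1.01, in the same order. Without Isl1 +/- replicate 1, the Isl1 +/- values were 0.42, 0.28 and 0.27, and without Nipbl +/-; Isl1 +/- replicate 3, Hba-x and Hbb-y in that genotype were at 0.16 and 0.01.

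Between the 2 groups with Nipbl loss, the fitted values lay above 1.4. Hba-x differed by 1.54 (SE 0.63, unadjusted p = 0.0211), Hbb-y by 1.47 (SE 0.66, 0.0342) and Hbb-bh1 by 1.53 (SE 0.67, 0.0284) in edgeR, with adjusted p between 0.516 and 0.525. Averaged Isl1 loss gave 1.08 (SE 0.43), 0.97 (SE 0.45) and 1.00 (SE 0.45), with adjusted p = 0.310, 0.388 and 0.372. Without Nipbl +/-; Isl1 +/- replicate 3, the values between the 2 groups with Nipbl loss were 0.94, 0.86 and 0.86 for Hba-x, Hbb-y and Hbb-bh1, with unadjusted p = 0.123, 0.176 and 0.175 in edgeR. Without Nipbl +/- replicate 2, the lowest library, they were 1.34, 1.27 and 1.33, with unadjusted p = 0.0416, 0.0655 and 0.0548. These differences did not pass over all genes, and the interaction had adjusted p = 0.999 for each member.

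The other genes of the red cell had the sign of the globins at the median in the comparisons given first below. In Nipbl +/-; Isl1 +/- against Isl1 +/-, given last, they did not. Of 17 heme and iron genes, 11 erythroid transcription factors, 17 red cell membrane genes and 13 tested of 16 other erythroid genes, 0 passed in any genotype comparison. In Nipbl +/- against wild type, edgeR gave 1, 1, 0 and 0 of them an unadjusted p under 0.05, beside 15.1% of all genes. Those genes were Hmox1, with a log2 difference of 0.96, and Myb, with 0.51, both higher. The median log2 differences of the lists were -0.26, -0.10, -0.40 and -0.27, beside 0.01 over all genes. In Nipbl +/-; Isl1 +/- against Nipbl +/-, 9, 5, 13 and 6 had an unadjusted p under 0.05, beside 9.01% of all genes, with medians of 0.48, 0.62, 1.31 and 0.80, beside -0.01 over all genes. In the same comparison, 3 of 8 megakaryocyte, 2 of 8 endothelial and endocardial, 1 of 10 cardiomyocyte, 0 of 10 macrophage and 1 of 6 liver markers had an unadjusted p under 0.05, with medians of -0.60, 0.16, -0.02, -0.40 and -0.93, and 0 passed; their part in the red-cell values was not tested. For averaged Isl1 loss, 9, 7, 15 and 9 had an unadjusted p under 0.05, beside 12.2% of all genes, and the medians were 0.33, 0.54, 1.00 and 0.64, beside -0.01 over all genes. There 0 of 8 megakaryocyte, 3 of 8 endothelial and endocardial, 1 of 10 cardiomyocyte, 0 of 10 macrophage and 1 of 6 liver markers had an unadjusted p under 0.05, with medians of -0.12, 0.13, -0.09, 0.02 and -0.38. Slc4a1, for example, had a log2 difference of 1.21 (SE 0.44, adjusted p = 0.285, edgeR) there and Alas2 one of 1.09 (SE 0.44, adjusted p = 0.314). In Nipbl +/-; Isl1 +/- against Isl1 +/-, the medians of the red-cell lists, in the same order, were -0.03, 0.02, -0.04 and 0.06. Hba-x, Hbb-y and Hbb-bh1 were at 0.11, 0.11 and -0.14 in that comparison.

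Of 11 regulators known from globin switching, such as the repressors Bcl11a and Sox6, 0 passed, with medians of -0.06 for Nipbl +/- and 0.07 for Nipbl +/-; Isl1 +/- against wild type and 1 and 0 genes at an unadjusted p under 0.05, beside 15.1% and 11.6% of all genes. The 1 gene in Nipbl +/- hearts was Myb, with a log2 difference of 0.51. Bcl11a had a log2 difference of -0.25 (SE 0.10, adjusted p = 0.205, edgeR) for averaged Nipbl loss. Of 8 other globin symbols, 4 could be tested and 0 passed. Hbq1b, a theta-type gene of the alpha cluster, had 4101 counts in all libraries, and Hbb-bh2 had 479.

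Markers of other cell types were also followed. In Nipbl +/- against wild type, 1 of 10 macrophage markers passed, Tyrobp, an adaptor of myeloid receptors, with a log2 difference of 1.35 (SE 0.34, adjusted p = 0.0313, edgeR), beside 1.71% of all genes called. Of the 10, 4 had an unadjusted p under 0.05, and the list's median was 0.85. None of 8 megakaryocyte, 8 endothelial and endocardial, 10 cardiomyocyte and 6 tested of 10 liver markers passed in that comparison, with 7, 1, 1 and 4 at an unadjusted p under 0.05, beside 15.1% of all genes, and medians of 0.80, -0.02, -0.19 and 0.87. The summed macrophage markers lay between 4.39 and 30.9 CPM and the summed liver markers between 9.59 and 457.5, the latter in Nipbl +/- replicate 9; the next highest library had 40.7. Alb, Fgb and Serpina1a, which define hepatocytes, had a median count of 0 but were not absent. Their highest counts in a library were 989, 425 and 86, of 1153, 538 and 101 in all libraries. Their part in the globin results was not tested.

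Globin levels differed between sets. The set term was called for 3 of 3 testable members in edgeR, with adjusted p = 0.0153 for Hba-x, 0.00888 for Hbb-y and 0.0174 for Hbb-bh1, where 38.2% of all genes were called. Without wild-type replicate 7 it was called for 1, Hbb-y (adjusted p = 0.0366), beside 35.7% of all genes, and in DESeq2 for 1, Hba-x (adjusted p = 0.0312), beside 44.6%. The total globin share had a median of 1.16% in set 1 (n = 6), 2.32% in set 2 (n = 9), 0.511% in set 5 (n = 14) and 1.57% in set 6 (n = 7). Every set still ranged widely, from 0.259% to 8.92% in set 2 and from 0.0446% to 3.14% in set 5.

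Set 5 had less globin RNA than set 2, with log2 differences of -2.24 (SE 0.55) for Hba-x, -2.45 (SE 0.58) for Hbb-y and -2.32 (SE 0.58) for Hbb-bh1 (adjusted p = 0.00326, 0.00237 and 0.00368, edgeR), where 33.5% of all genes were called. Sets 1 and 6 against set 2 had 0 members called, beside 6.85% and 23.3% of all genes; their unadjusted p was under 0.05 for 3 and 0 members, beside 20% and 36.3% of all genes. Other red-cell genes also differed between sets: the set term was called for 14 of 17 heme and iron genes, 14 of 17 membrane genes, 7 of 11 erythroid factors and 8 of 13 other erythroid genes, beside the 38.2% of all genes. Markers of other cell types were called as well: 5 of 10 macrophage, 5 of 10 cardiomyocyte, 4 of 8 endothelial and endocardial, 2 of 6 liver and 0 of 8 megakaryocyte markers. Between sets 5 and 2, the median log2 difference was -0.96 for heme and iron genes, -1.01 for erythroid factors, -1.67 for membrane genes and -1.39 for other erythroid genes, beside -1.09 for macrophage, -1.34 for liver, -0.27 for megakaryocyte, 0.10 for endothelial and endocardial and -0.23 for cardiomyocyte markers. The part of these markers in the globin differences between sets was not tested. Between sets 5 and 2, Alas2 had a log2 difference of -2.25 (SE 0.56) and Slc4a1 one of -2.08 (SE 0.57).

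The balance of the beta-type pair differed with the Nipbl genotype and also between sets. The log2 ratio of Hbb-y to Hbb-bh1 counts was 0.24 in the lowest, 0.46 at the median and 0.73 in the highest wild-type library, a mean of 0.45 ± 0.18 (SD, n = 10). In Isl1 +/- hearts the values were 0.27, 0.42 and 0.59, a mean of 0.44 ± 0.11 (SD, n = 9). In Nipbl +/- hearts they were 0.61, 0.76 and 1.03, a mean of 0.79 ± 0.15 (SD, n = 9). In Nipbl +/-; Isl1 +/- hearts they were 0.60, 0.80 and 0.95, a mean of 0.80 ± 0.11 (SD, n = 9).

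Every library of both Nipbl +/- groups lay above every Isl1 +/- library, but by only 0.604 against 0.594 at the closest. Of the 18 libraries with Nipbl loss, 13 also lay above every one of the 19 libraries with intact Nipbl, the highest of which was wild-type replicate 8 at 0.73. In linear terms, Hbb-y had 1.18 to 1.65 counts for each Hbb-bh1 count with intact Nipbl and 1.52 to 2.05 with Nipbl loss. The difference of the 2 means was 0.35 on the log2 scale, over all sets, of which set 1 holds only intact Nipbl. How many other pairs of genes separate the Nipbl states to this degree was not counted. Nipbl +/- replicate 2, grouped here by its label although its Nipbl level goes against it, had a log2 ratio of 0.65 and is not among the 13; without it the difference was 0.36.

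**Figure D2:**
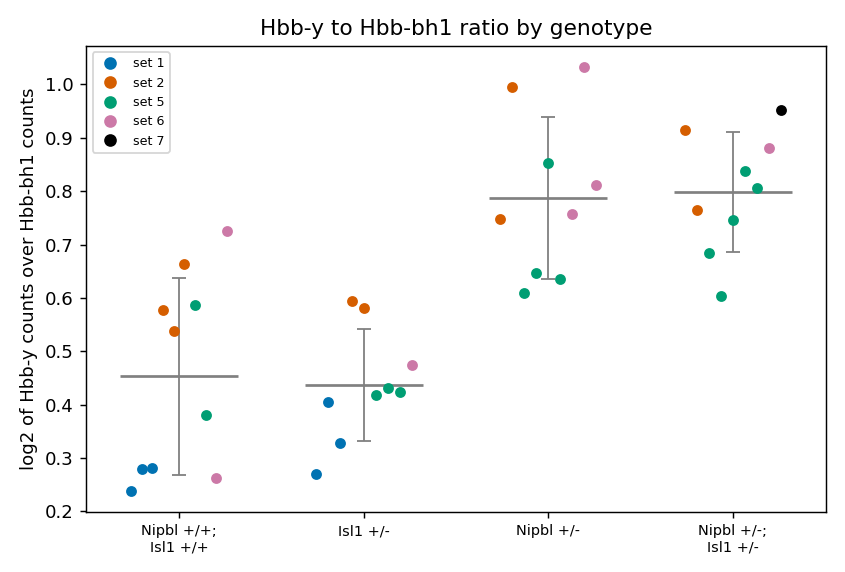
Log2 of Hbb-y counts over Hbb-bh1 counts in each library by genotype, coloured by set, with the mean and SD of each group in grey. The groups with intact Nipbl have means of 0.45 and 0.44, the groups with Nipbl loss means of 0.79 and 0.80.

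Within each set that holds both, the 2 Nipbl states as labelled did not overlap. In set 2, the 5 libraries with intact Nipbl had log2 ratios of 0.54, 0.58, 0.58, 0.59 and 0.66, and the 4 with Nipbl loss had 0.75, 0.77, 0.92 and 0.99. In set 5, the 5 with intact Nipbl had 0.38, 0.42, 0.42, 0.43 and 0.59, and the 9 with Nipbl loss ran from 0.60 over a median of 0.68 to 0.85. In set 6, the 3 with intact Nipbl had 0.26, 0.47 and 0.73, and the 4 with Nipbl loss had 0.76, 0.81, 0.88 and 1.03. The lowest library with Nipbl loss was thus above the highest with intact Nipbl in all 3 sets, but by only 0.60 against 0.59 in set 5. Nipbl +/- replicate 2 is 1 of the 9 in set 5. The other 8 had a median of 0.72 over the same range. If that library were grouped by its Nipbl level instead, the states would overlap in set 5, since its ratio lies above the lowest of the other 8.

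The differences of the means were 0.27 in set 2, 0.27 in set 5 and 0.38 in set 6. Set 1, which holds no library with Nipbl loss, had the lowest median ratio of the sets with more than 1 library, 0.28, with values from 0.24 to 0.41. Among libraries with intact Nipbl, the mean log2 ratio was 0.30 ± 0.06 (SD, n = 6) in set 1 and 0.59 ± 0.05 (SD, n = 5) in set 2, without overlap, a distance about as large as that between the Nipbl states within a set. In a linear model with genotype and set, the log2 ratio was higher than in wild type by 0.29 (SE 0.05) in Nipbl +/- and by 0.30 (SE 0.06) in Nipbl +/-; Isl1 +/- hearts. The Isl1 +/- hearts differed from wild type by 0.01 (SE 0.05), and the 2 groups with Nipbl loss from each other by 0.01 (SE 0.05). These differences between score values carry no p.

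**Figure D3:**
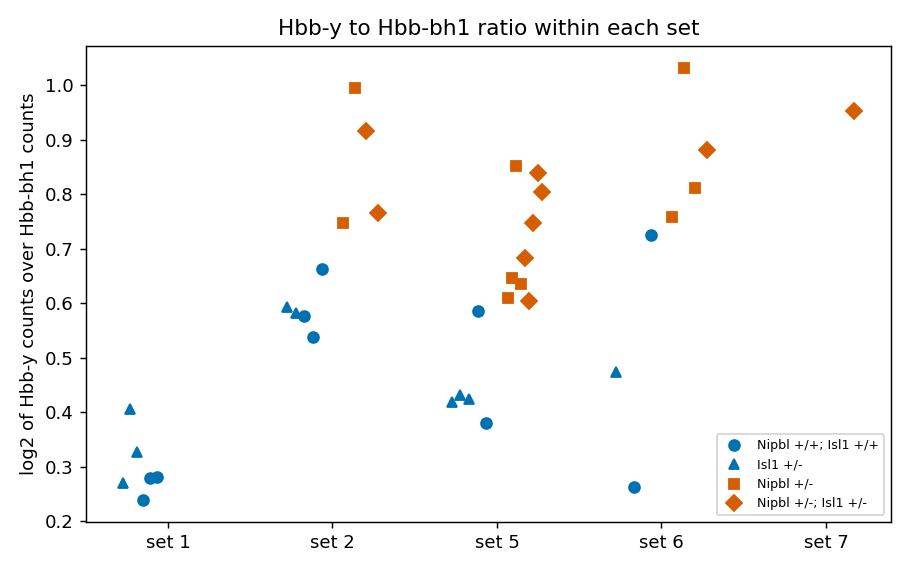
Log2 of Hbb-y counts over Hbb-bh1 counts in each library, by set; blue marks intact Nipbl, orange marks Nipbl loss, and the symbols give the genotype. In sets 2, 5 and 6 every orange point lies above every blue one, with differences of the means of 0.27, 0.27 and 0.38.

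To restate this difference in a fit over all genes, Hbb-y itself was entered as a covariate in edgeR. Every other gene is then compared between hearts of equal Hbb-y level. This fit was chosen after the ratio had been seen, and it restates the ratio in the same 37 libraries. Its p-values are not independent support for the difference. Hbb-bh1 follows Hbb-y at r = 0.992, so this covariate takes up most of its spread between libraries. The p-values therefore do not rank Hbb-bh1 among all genes on like terms. Hbb-bh1 was then lower in Nipbl +/- than in wild-type hearts, with a log2 difference of -0.29 (SE 0.06, adjusted p = 0.00461 over 15045 genes), with 1.81% of all genes called. It was lower, with a log2 difference of -0.31 (SE 0.06, adjusted p = 0.00392) in Nipbl +/-; Isl1 +/- hearts against wild type, with 2.41% called, and of -0.29 (SE 0.06, adjusted p = 0.00880) against Isl1 +/- hearts, with 1.16% called. For Nipbl loss averaged over both Isl1 genotypes, Hbb-bh1 was lower, with a difference of -0.29 (SE 0.04, adjusted p = 7.02e-05), with 4.44% called.

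For Isl1 loss no such difference was called. Hbb-bh1 at equal Hbb-y differed by -0.01 (SE 0.06, adjusted p = 0.9502) between Isl1 +/- and wild-type hearts, by -0.01 (SE 0.06, adjusted p = 0.971) between Nipbl +/-; Isl1 +/- and Nipbl +/-, and by -0.01 (SE 0.04, adjusted p = 0.929) for averaged Isl1 loss, and 0% of all genes were called in each. The interaction was 0.00 (SE 0.08, adjusted p = 1.000), also with 0% called.

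**Figure D4:**
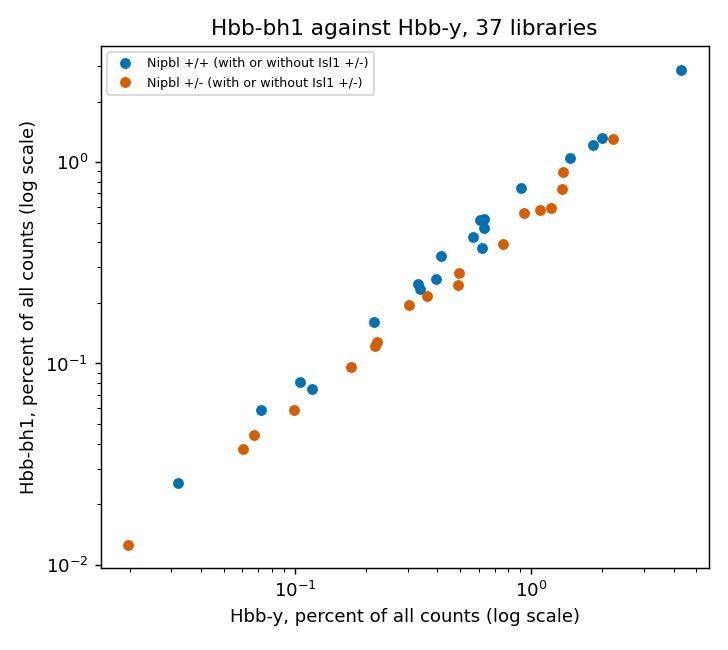
Hbb-bh1 against Hbb-y in the 37 libraries, each as percent of all counts on log axes; blue marks intact Nipbl and orange Nipbl loss. The orange points lie mostly below the blue ones at a given Hbb-y share, over shares from 0.0197% to 4.30%.

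Averaged Nipbl loss also passed without each library in turn, with values from -0.31 to -0.26 and adjusted p up to 0.000258, and under 8 other settings, with adjusted p from 2.32e-06 to 0.0169. Without Nipbl +/- replicate 2, whose Nipbl level goes against its label, the value was -0.30 (adjusted p = 2.46e-05), and without Nipbl +/- replicate 9, which had the liver markers, it was -0.28 (adjusted p = 0.000178). Some calls of single genotypes were lost when a set was left out. Without set 2, Nipbl +/- against wild type had -0.32 (adjusted p = 0.0893) and Nipbl +/-; Isl1 +/- against Isl1 +/- had -0.31 (adjusted p = 0.104). Without set 5, Nipbl +/-; Isl1 +/- had -0.32 (adjusted p = 0.236) against wild type and -0.28 (adjusted p = 0.436) against Isl1 +/-. Over all settings, the lowest adjusted p was 0.00111 for Nipbl +/- against wild type, 0.000409 for Nipbl +/-; Isl1 +/- against wild type and 0.00105 for it against Isl1 +/-.

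For Hba-x no such difference was called. At equal Hbb-y, Hba-x differed by -0.04 (SE 0.09, adjusted p = 0.892, edgeR) in Nipbl +/- and by 0.06 (SE 0.09, adjusted p = 0.834) in Nipbl +/-; Isl1 +/- hearts against wild type. The log2 ratio of Hba-x to the sum of Hbb-y and Hbb-bh1 had means of -1.58 ± 0.20 (SD, n = 10) in wild-type, -1.49 ± 0.11 (n = 9) in Isl1 +/-, -1.49 ± 0.28 (n = 9) in Nipbl +/- and -1.40 ± 0.16 (n = 9) in Nipbl +/-; Isl1 +/- hearts. All 4 groups overlapped.

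A covariate of red-cell genes other than globins gave no call for a member with the set number as a term. With the mean of Alas2, Slc4a1, Gata1 and Klf1 in the fit, Hbb-bh1 was at -0.35 (SE 0.15, adjusted p = 0.305, edgeR) in Nipbl +/- and -0.40 (SE 0.16, adjusted p = 0.251) in Nipbl +/-; Isl1 +/- hearts against wild type, where 1.75% and 1.99% of all genes were called. Hbb-y in the same fit was at -0.07 (SE 0.16) and -0.12 (SE 0.17), and Hba-x at -0.12 (SE 0.12) and -0.06 (SE 0.13). None of the 3 passed; at an unadjusted p under 0.05 stood Hbb-bh1 alone, with 0.0294 and 0.0157. Against Isl1 +/- hearts, Hbb-bh1 in Nipbl +/-; Isl1 +/- hearts was at -0.20 (SE 0.16, adjusted p = 1.000, edgeR), and Isl1 +/- hearts against wild type were also at -0.20 (SE 0.15, adjusted p = 0.776). Averaged Nipbl loss gave -0.27 (SE 0.11, unadjusted p = 0.0227, adjusted p = 0.220). With the replicate number in place of the set, 1 member passed for Nipbl +/-; Isl1 +/- against wild type and 1 for averaged Nipbl loss, beside 4.55% and 6.45% of all genes. With no set term 1 passed for averaged Nipbl loss, beside 6.64%. Gata1 is also a megakaryocyte factor, and its part in this covariate in Nipbl +/- replicate 2, the library with the highest megakaryocyte markers, was not tested.

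The ratio of Hbb-y to Hbb-bh1 varied little with the level of red-cell genes. Across 37 libraries its log2 value had r = 0.08 with Alas2, 0.13 with Slc4a1, 0.10 with Gata1 and 0.05 with Klf1. The genes most like the ratio among 12077 were Fam174b (r = 0.853), Cdh13 (0.828), Plat (0.774), Rarres1 (0.765) and Trim72 (0.763). The genes most opposed to it were Grb14 (r = -0.757), Ndrg3 (-0.733), Kars (-0.728), Lap3 (-0.722) and Mrps2 (-0.715). These values describe libraries that share genotype and set.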

How the data were processed

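The authors deposited 1 table of raw read counts per gene for 37 libraries, without normalization; STAR, featureCounts and GRCm38 (mm10) are named per the submitters' processing notes, while versions, annotation, strand and the handling of multi-mapping reads are not given in the sources used here. Of 25239 gene rows, 4273 were 0 in every library. The members and gene lists were chosen with earlier results of these data known; fixed named genes were the members, red-cell list genes that passed, Alas2, Slc4a1, Gata1, Klf1, Ahsp, the targeted genes, and the 5 genes most like Hbb-y and most like or opposed to the Hbb-y to Hbb-bh1 ratio (mean log2 CPM of at least 1), of which 1 is not reported here. Some further list genes and features were picked after their values were seen.

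Counts were tested with edgeR 4.0.16 (TMM, filterByExpr at 10 and 15 counts, quasi-likelihood, genotype plus set, 37 libraries) over 15046 genes, with Benjamini-Hochberg adjustment. The lone set 7 library is fitted exactly by its set term and adds nothing to genotype differences. Shares and ratios used raw counts. The fit was tested on simulated data for Nipbl +/- against wild type: 155 of 200 changed genes among 14957 were recovered, with 4 false calls. Alternatives were DESeq2 1.42.0, other size factors and filters, sva 3.50.0 with 2 surrogate variables, and leaving out sets and libraries. No pair of the 153 same-genotype pairs looked like 1 library deposited again (lowest chi-square per degree of freedom 7.19). Covariate fits, averaged contrasts and the Hba-x to beta-type ratio were added after the data were seen.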

Additional observations from a re-analysis of the deposited data

Results flagged for a closer look

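Of 24 checks for a library far from the rest of its genotype, 5 stood out. Chance gives about 1 in 20 for normally distributed values. Wild-type replicate 7 was far above the other 9 wild-type libraries for the share of Hba-x (1.74%), Hbb-y (4.30%), Hbb-bh1 (2.88%) and their total (8.92%). These 4 values are not independent, and the library's Hbb-y to Hbb-bh1 ratio (log2 0.58) lay inside its group. Nipbl +/- replicate 8 had the lowest log2 ratio of Hba-x to Hbb-y plus Hbb-bh1, -2.15, far below the other 8 Nipbl +/- libraries, at 0.174% Hba-x, 0.494% Hbb-y and 0.282% Hbb-bh1.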

How the results depend on the processing

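Of 1990 recomputed values, 1979 kept their direction and side of the threshold or stayed within the replicate spread. These rules are wide, as that spread was 1.76 on the log2 scale for the total globin share. Hbb-y in Nipbl +/- against wild type moved from -0.89 to -0.23 without wild-type replicate 7 and still counted as kept. The count of members called was 0 under all 49 alternatives in each genotype comparison without covariate. The set term called 3 members and 1 in DESeq2; leaving out 1 library at a time gave 1 to 3, with 1 without wild-type replicate 7. With the covariate of 4 red-cell genes, 1 member in place of 0 passed for Nipbl +/-; Isl1 +/- against wild type under a replicate block, and 1 for averaged Nipbl loss under a replicate block and with no set term. Hbb-bh1 at equal Hbb-y no longer passed the threshold without set 2 (Nipbl +/- against wild type -0.32; Nipbl +/-; Isl1 +/- against Isl1 +/- -0.31) and without set 5 (Nipbl +/-; Isl1 +/- -0.32 against wild type, -0.28 against Isl1 +/-); fewer libraries were fitted there and the values stayed near those of all sets. Hbb-bh1 in Nipbl +/-; Isl1 +/- against wild type was reversed with no set term (-0.22) and without Nipbl +/-; Isl1 +/- replicate 3 (-0.28, in a range of -0.28 to 1.01 over single libraries left out); the cause was not tested.

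Replicate numbers only name libraries: of 54 same-numbered pairs, 17 had correlated deviations above 0.1 (median 0.03), and 3 of 36 libraries were closest to one of their own number. With the replicate number as a block in place of the set, Hbb-bh1 at equal Hbb-y had -0.37 for averaged Nipbl loss, and no other call changed than those named. The embryonic to adult-type ratios could not be run, since 4 members had 11 counts in all.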
